A study of Rattus norvegicus with 72 samples.

Results

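The 6 cortex RNA libraries of the paternal label at postnatal day 2 (P2) were divided into classes chosen by their measured level of the accession NM_173010, which stands for mouse Ube3a. These are 6 of the 24 cortex RNA libraries, of 48 RNA libraries and of 72 libraries in all, all made from female rat pups. The label "paternal" covers here 3 libraries with a UBE3A deletion inherited from the father and 3 from wild-type (WT) litter-matched controls, with no other allele or agent named. The level of NM_173010 was its count divided by the library's total count, in the usual CPM scale. A library under 20 CPM was called Ube3a-low and one at 20 CPM or more Ube3a-high, whatever its genotype label. This gave 3 low and 3 high libraries. They were set against the paternal-labelled P9 cortex (3 WT, 3 deletion) and the paternal-labelled hypothalamus (3 WT and 3 deletion at each of P2 and P9). The labels give triplicates without saying that each came from another pup, so the p-values cover no more than the spread between these libraries. The extent of the deletion is not given there.

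Ube3a encodes an E3 ubiquitin ligase that attaches ubiquitin to other proteins and so marks them for breakdown. In neurons the gene is imprinted: the maternal allele is active and the paternal allele is silenced by a long antisense transcript, while many other cell types use both alleles. Loss of the maternal copy causes Angelman syndrome in humans. In whole tissue, fewer cells of a type and less RNA per cell cannot be told apart.

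The low libraries were WT replicate 1 with 15 counts of NM_173010 (13.6 CPM), WT replicate 2 with 12 counts (11.4 CPM) and deletion replicate 3 with 11 counts (12.5 CPM). The high libraries were WT replicate 3 with 45 counts (47.4 CPM), deletion replicate 1 with 38 counts (42.8 CPM) and deletion replicate 2 with 25 counts (27.8 CPM). These values chose the classes and are a description only. Nearest to the limit were 13.6 CPM below it and 27.8 CPM above it. The exact 95% Poisson interval, which covers counting error only, ran from 7.62 to 22.4 CPM in WT replicate 1, from 6.25 to 22.4 CPM in deletion replicate 3 and from 17.98 to 41.0 CPM in deletion replicate 2. In these 3 of 6 libraries it thus included the limit of 20 CPM, so their class rests on few counts.

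**Figure D1:**
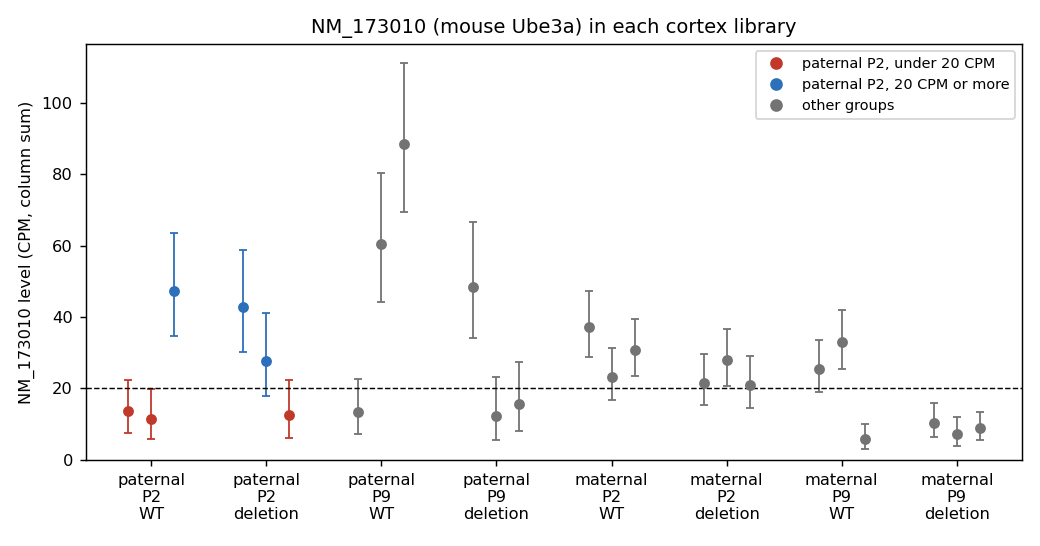
Level of NM_173010 in each cortex library (CPM by column sum, vertical axis) by parental label, age and genotype label; each point is a library, bars are exact 95% Poisson intervals and the dashed line is the 20 CPM limit. The 6 paternal-labelled P2 libraries lie at 11.4 to 13.6 CPM (red) and 27.8 to 47.4 CPM (blue), and each colour occurs under both genotype labels.

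The split did not follow the genotype label. The low class held 2 WT and 1 deletion library, and the high class 1 WT and 2 deletion libraries. By label, WT libraries stood at 24.1 ± 20.1 CPM and deletion libraries at 27.7 ± 15.1 CPM (SD, n = 3 each). In paternal-labelled hypothalamus at P2, by contrast, NM_173010 lay at 6.71 to 10.1 CPM in the 3 deletion libraries and at 49.9 to 58.0 CPM in the 3 WT libraries, without overlap. The 3 low cortex libraries lay above that hypothalamic deletion range and the 3 high ones below that hypothalamic WT range, values from separate tables that were not tested against each other. In maternal-labelled hypothalamus at P2, NM_173010 stood at 50.7 ± 18.2 CPM in deletion and 54.9 ± 28.7 CPM in WT libraries (SD, n = 3 each). In P2 hypothalamus the lower level with the deletion thus appeared under the paternal label. Yet the paternal allele is described above as silenced in neurons, and the reason was not tested. In maternal-labelled cortex at P2, deletion libraries stood at 23.5 ± 3.81 CPM and WT libraries at 30.4 ± 7.01 CPM (SD, n = 3 each). At P9 they stood at 8.81 ± 1.60 and 21.4 ± 14.1 CPM, and the ranges overlapped at both ages. Which part of the gene the deletion removes is not known here. Whether the level of NM_173010 in cortex can check a genotype label was not tested.

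The age label of these libraries also stands against the rest of the cortex. In maternal-labelled cortex, 589 accessions were higher and 773 lower at P9 than at P2, past 1 on the log2 scale and an adjusted p of 0.05 in edgeR. Of the 589, 586 (99.5%) were lower at P9 in paternal-labelled cortex, and of the 773, 762 (98.6%) were higher. As an index of age, the mean log2 CPM of the 773 was subtracted from that of the 589. The index ran from 0.34 to 0.78 in maternal-labelled P2 and from 2.72 to 3.31 in maternal-labelled P9 libraries. The maternal-labelled libraries also chose the accessions of the index, so their own separation follows from that choice. All 6 paternal-labelled P2 libraries had 1.93 to 2.33, and the paternal-labelled P9 libraries had -0.73 to 0.03. The Ube3a classes overlapped, with 1.93 to 2.18 in the low and 2.04 to 2.33 in the high class. Ages are given below as labelled.

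**Figure D2:**
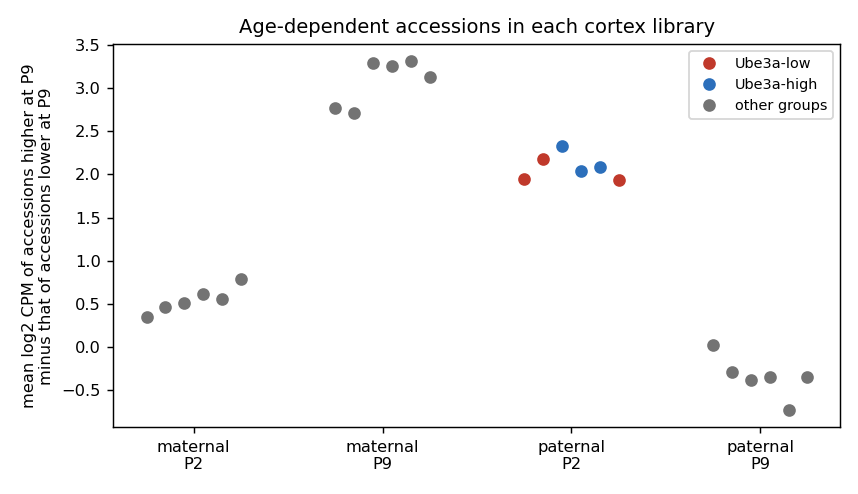
Age index of each cortex library (mean log2 CPM of accessions higher at P9 minus that of accessions lower at P9 in maternal-labelled cortex, vertical axis) by parental label and age. The paternal-labelled P2 libraries (1.93 to 2.33, red low and blue high) lie above the maternal-labelled P2 libraries, and the paternal-labelled P9 libraries lie lowest.

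Totals of the 6 libraries ran from 878649 to 1102194 counts. The low class had 1010710 ± 117166 and the high class 912575 ± 33189 counts (SD, n = 3 each, exact permutation p = 0.4, two-sided). Noncoding (NR_) accessions took 6.20% to 7.14% of counts in the low and 6.33% to 6.44% in the high class (exact permutation p = 0.4). The number of accessions detected, the share of the most abundant accession and the TMM scaling factor also overlapped between classes, with exact permutation p of 1, 0.8 and 0.6. All 5 measures had an adjusted p of 1 by the same exact permutation test, and 3 against 3 libraries cannot give less than 0.1. Over 8380 accessions, log2 levels of 2 libraries of the same class correlated at a median r of 0.961 (6 pairs) and those of different classes at 0.962 (9 pairs), as a description.

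The accessions of the files could not be paired with gene names. Of 184444 counted accessions, 0 matched the rat genes of a RefSeq table (assembly GRCr8), and none of the 14 rat Ube3a accessions of that table was counted. The name Ube3a for NM_173010 was given with the rule. No marker of a cell type, synaptic or Wnt gene, or neighbour of Ube3a in its imprinted domain could therefore be read, and the tissue label was not checked by markers. Accessions are given below as deposited, and several can belong to the same gene.

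At P2, no accession passed the threshold between the classes. NM_173010, which set the classes, was left out of the counts and did not pass either. Among the others, the edgeR quasi-likelihood F-test called 0 of 8379 (0%) at a Benjamini-Hochberg adjusted p under 0.05, and DESeq2 also called 0. At unadjusted p under 0.05 there were 349 (4.17%), 204 (2.43%) lower and 145 (1.73%) higher in the low class, where evenly spread p-values give 419. The median log2 difference over all accessions was 0.00 (-0.0025), and the 3 low libraries did not overlap the 3 high ones in 846 accessions (10.1%). In the same 6 libraries, deletion and WT labels gave 0 calls (0%), 275 accessions at unadjusted p under 0.05 (3.28%) and 745 without overlap (8.89%). Neither the Ube3a level nor the genotype label thus gave more small p-values than evenly spread ones.

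The precision depended on the level. At 100 CPM or more (1787 accessions), the median 95% interval reached 0.27 to either side on the log2 scale, a 1.21-fold difference. At 20 to 100 CPM (2677 accessions) it reached 0.48, and at 5 to 20 CPM (3058 accessions) 0.91, a 1.88-fold difference. Under 5 CPM (857 accessions) it reached 1.46, so that differences under about 2.75-fold lay within the interval of a single accession. The share of accessions at unadjusted p under 0.05 was 4.08% under 5 CPM and 3.19% at 100 CPM or more.

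**Figure D3:**
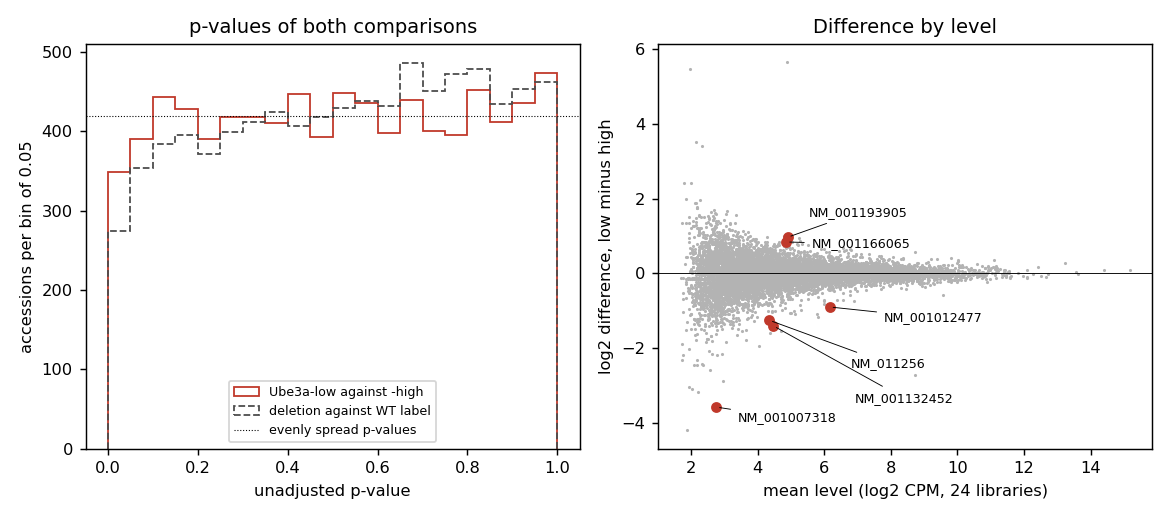
Left, number of accessions (vertical axis) per bin of unadjusted p-value for Ube3a-low against Ube3a-high (red) and deletion against WT label (dashed) in the 6 paternal-labelled P2 cortex libraries; the dotted line marks evenly spread p-values. Right, log2 difference (low minus high) against mean log2 CPM, with accessions described in the text in red; at p under 0.05 the counts are 349 and 275.

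A pair of accessions, NM_001132452 and NM_001007318, were lower in each NM_173010-low library than in any NM_173010-high library of the same age in paternal-labelled cortex. This held for 17 of 8379 accessions. NM_001132452 came to attention through an alternative setting, and NM_001007318 because its log2 level had the highest correlation with NM_173010 over the 24 cortex libraries (Pearson r = 0.81, as a description). No name table used here lists either accession. Whether they belong to the same gene as NM_173010 is therefore not known, and if they do, they are not independent of the value that set the split.

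At P2, NM_001132452 stood at 22.3, 13.9 and 16.3 scaled CPM (TMM-adjusted library size) in the low WT replicates 1 and 2 and deletion replicate 3, and at 64.2, 38.2 and 37.1 scaled CPM in the high WT replicate 3 and deletion replicates 1 and 2. Every low library lay below every high one, and 10.1% of all accessions separated the P2 classes in either direction. The log2 difference was -1.40 (SE 0.455, 95% interval -2.34 to -0.45), with an unadjusted p of 0.00567 and an adjusted p above 0.99 in edgeR, so it did not pass the threshold at P2 alone.

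NM_001007318 is sparse. It had 2, 0 and 0 counts in the low libraries and 10, 8 and 6 counts in the high ones. These did not overlap either, as for 10.1% of all accessions at P2. Summed over 3 libraries a class and divided by total counts, the high class had 13.3 times the low level, with an exact 95% counting interval of 3.30 to 116. Its edgeR p was 0.00109 unadjusted and above 0.99 adjusted.

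The P9 libraries of the same label were not used in forming the P2 classes. Split by the same 20 CPM limit, they gave WT replicate 1 and deletion replicates 2 and 3 as low, and WT replicates 2 and 3 and deletion replicate 1 as high. NM_001132452 stood there at 11.1, 10.8 and 17.6 scaled CPM in the low and at 72.3, 25.2 and 26.96 scaled CPM in the high libraries. NM_001007318 had 2, 1 and 3 counts in the low and 11, 9 and 9 counts in the high libraries. It was picked for its correlation with NM_173010 over the 24 cortex libraries, which include these. Its separation at P9 thus follows in part from that choice. Neither accession overlapped between the classes at P9, as held for 609 of 8379 accessions (7.27%). Their P9 log2 differences were -1.66 (SE 0.376, unadjusted p = 0.000124, adjusted p = 0.259) and -2.30 (SE 0.643, unadjusted p = 0.00115, adjusted p = 0.527) in edgeR, so neither passed at P9 alone. At P9, 0 of 8379 accessions were called in edgeR (0%), with 370 at unadjusted p under 0.05 (4.42%).

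Averaged over P2 and P9, low against high in the 12 paternal-labelled cortex libraries gave 2 calls among 8379 other accessions (0.0239%), with 367 at unadjusted p under 0.05 (4.38%). Both were lower in the low class. NM_001132452 was lower by a log2 difference of -1.53 (SE 0.255, 95% interval -2.05 to -1.01, adjusted p = 0.0091 in edgeR), and NM_001007318 by -2.94 (SE 0.523, 95% interval -4.00 to -1.87, adjusted p = 0.0106 in edgeR). This comparison was chosen after the data were seen, and NM_001007318 was picked with these libraries included. If either accession belongs to the gene of NM_173010, which is not known, its call repeats the value that set the classes. Leaving out any of the 12 libraries kept both calls, with edgeR adjusted p up to 0.0401, and the fitted log2 difference of NM_001007318 was -4.50 without P2 WT replicate 1, when both remaining low P2 libraries were at 0 and the value is no bound. With only these 12 libraries in the fit, NM_001132452 had an adjusted p of 0.129 in edgeR and NM_001007318 did not pass the filter on low counts, and DESeq2 called NM_001132452 (adjusted p = 0.00269) and not NM_001007318 (0.149).

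The next accession by p-value was NM_011668. It had 2, 1 and 2 counts in the low and 9, 6 and 6 counts in the high P2 libraries, and 5, 3 and 0 against 11, 9 and 11 counts at P9. Its averaged log2 difference was -2.08 (SE 0.423, adjusted p = 0.0582 in edgeR), short of the threshold. It was chosen after its values were seen, and its gene is likewise not named by any table used here. Whether it is another record of the gene of NM_173010 is not known. If it is, its difference repeats the value that set the classes and is no further result.

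**Figure D4:**
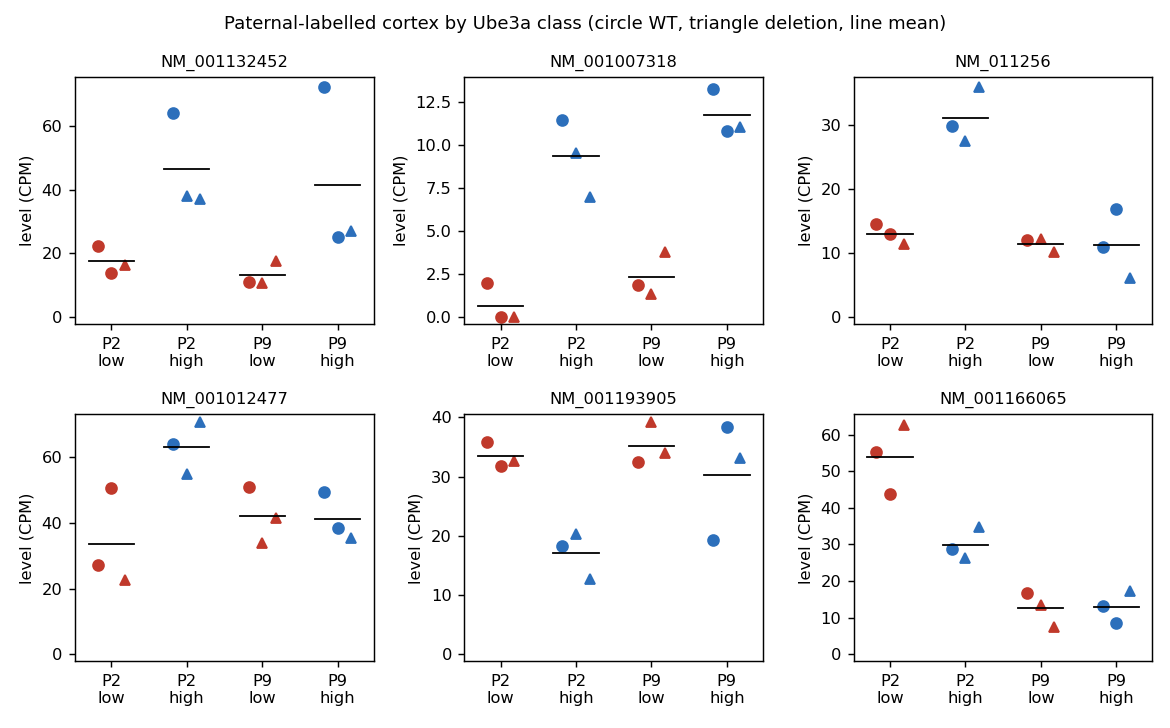
Scaled CPM (vertical axis) of 6 accessions in paternal-labelled cortex by Ube3a class and age; circles are WT, triangles deletion and lines class means (n = 3 each). NM_001132452 and NM_001007318 are lower in the low class at both ages, and the other 4, picked at P2 for small p-values, do not overlap between classes at P2 and overlap at P9.

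In the hypothalamus, groups come from the genotype labels alone and no library was used by the rule. NM_001132452 stood there at 29.5, 111 and 73.9 scaled CPM in paternal-labelled WT and at 13.2, 5.23 and 11.3 in deletion libraries at P9, without overlap, as for 4.28% of the 5839 other accessions. At P2 it stood at 7.41, 21.1 and 61.9 scaled CPM in WT and at 8.44, 4.59 and 17.2 in deletion libraries, and these overlapped, while 9.16% of the other accessions did not overlap at P2. At P9 the deletion minus WT log2 difference was -2.71 (SE 0.645, unadjusted p = 0.000381 in edgeR), and at P2 it was -1.57 (SE 0.648, unadjusted p = 0.0244), each with an adjusted p above 0.99. At P9, 0 of 5839 other accessions were called in edgeR (0%) and 49 had an unadjusted p under 0.05 (0.839%). Averaged over both ages, the deletion minus WT log2 difference was -2.14 (SE 0.458, 95% interval -3.09 to -1.19, unadjusted p = 0.000121, adjusted p = 0.353 in edgeR). It did not pass the threshold, and it had the lowest p-value (rank 1) of the 5839 accessions other than NM_173010, of which 78 had an unadjusted p under 0.05 (1.34%) and 0 were called (0%). If NM_001132452 or NM_001007318 belongs to the gene of NM_173010, which is not known, a lower level with the deletion is no further result.

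NM_001007318 did not pass the hypothalamic filter on low counts. In paternal-labelled hypothalamus it had 2, 8 and 5 counts in WT and 2, 7 and 2 in deletion libraries at P2, which overlapped. At P9 it had 7, 14 and 9 against 3, 0 and 3 counts, without overlap, as for 4.28% of the 5839 accessions tested in hypothalamus. Deletion libraries were lower by 5.44 scaled CPM averaged over ages (a difference of -5.44, exact two-sided permutation within age, p = 0.025 over 400 arrangements). At single ages the exact permutation p was 0.3 at P2 and 0.1 at P9, the smallest that 3 against 3 allow. This test was chosen after the counts were seen and is not adjusted over accessions.

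**Figure D5:**
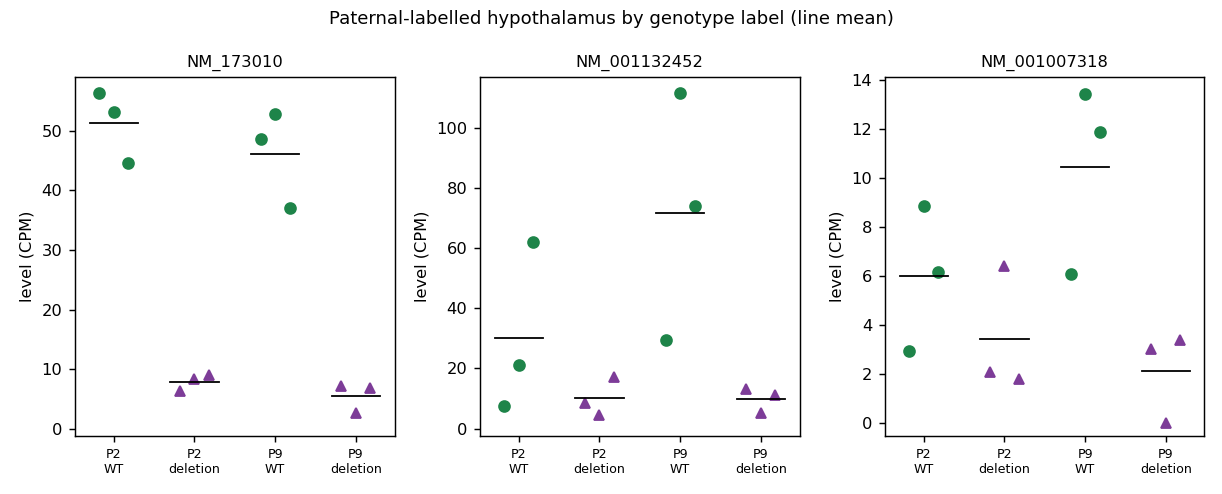
Scaled CPM (vertical axis) of NM_173010, NM_001132452 and NM_001007318 in each paternal-labelled hypothalamus library by age and genotype label (circles WT, triangles deletion, lines means, n = 3 each). At P9 the deletion libraries lie below the WT libraries for all 3 accessions; at P2 this holds for NM_173010, and the other accessions overlap.

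In maternal-labelled P9 cortex, NM_173010 was under 20 CPM in WT replicate 3 (5.77 CPM) and in all 3 deletion libraries (7.20 to 10.4 CPM), and stood at 25.5 and 33.0 CPM in WT replicates 1 and 2. NM_001007318 was at 2.10 scaled CPM in WT replicate 3, at 1.29 to 4.27 in the deletion libraries, and at 8.10 and 5.07 in WT replicates 1 and 2. NM_001132452 was at 20.4 scaled CPM in WT replicate 3, at 14.6 to 18.5 in the deletion libraries, and at 14.04 and 21.95 in WT replicates 1 and 2. The libraries low in NM_173010 were thus the lower ones for NM_001007318 and overlapped the others for NM_001132452, without a test. Over the 18 cortex libraries other than the 6, the correlation of log2 levels with NM_173010 was r = 0.86 for NM_001007318. For NM_001132452 it was r = 0.45. Both are a description over libraries that differ in age and depth. NM_001007318 was picked for its correlation over the 24 cortex libraries, which include these 18. Its r here and its order in maternal-labelled P9 cortex thus follow in part from that choice. Over the 24 hypothalamus libraries the r for NM_001132452 was 0.22. In the 12 maternal-labelled hypothalamus libraries NM_173010 stood at 27.5 to 80.7 scaled CPM, while NM_001132452 had 0 to 17.7 scaled CPM (at most 11 counts), so there it was at low levels where NM_173010 was not.

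The smallest P2 p-values belonged to other accessions, named here by rule: the 2 lowest in each direction. None passed the adjusted threshold, and each had an adjusted p above 0.99 in edgeR. NM_011256 stood at 14.5, 12.9 and 11.3 scaled CPM in the low and 29.8, 27.4 and 35.9 in the high libraries, a log2 difference of -1.25 (SE 0.304, unadjusted p = 0.000264 in edgeR). NM_001012477 stood at 27.1, 50.8 and 22.6 against 64.2, 54.9 and 70.7 scaled CPM, a log2 difference of -0.89 (SE 0.230). Its value of 50.8 came from WT replicate 2, and without that library its log2 difference was -1.33 and its adjusted p 0.0405 in edgeR.

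NM_001193905 was at 35.9, 31.9 and 32.6 scaled CPM in the low and 18.3, 20.3 and 12.7 in the high libraries (log2 difference 0.97, SE 0.276). NM_001166065 was at 55.2, 43.8 and 62.75 against 28.7, 26.2 and 34.8 scaled CPM (log2 difference 0.84, SE 0.258). All 4 separated the P2 classes without overlap, as 10.1% of all accessions did. At P9 their low minus high log2 differences were 0.02 (SE 0.389) for NM_011256, 0.05 (SE 0.248) for NM_001012477, 0.21 (SE 0.254) for NM_001193905 and 0.00 (-0.0017, SE 0.396) for NM_001166065. The P9 classes overlapped for each of them. The P2 minus P9 difference in effect was -1.27 for NM_011256 (95% interval -2.29 to -0.24, adjusted p = 0.963 in edgeR), so a change between ages was not called either. In paternal-labelled P2 hypothalamus their deletion minus WT log2 differences were -0.30, 0.03, 0.42 and -0.06, with adjusted p above 0.99 each in edgeR, where 0 of 5839 other accessions were called (0%) and 122 had an unadjusted p under 0.05 (2.09%). In paternal-labelled P9 hypothalamus the differences were 0.52, -0.54, 0.31 and 0.01, again with adjusted p above 0.99 each in edgeR.

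Across all accessions the P2 and P9 splits had little in common. Their log2 differences correlated at r = -0.0088 over 8379 accessions, as a description, and 47.5% had the same sign. Of the 343 accessions at unadjusted p under 0.05 at P2 in the fit with both ages split, 19 (5.54%) were also under 0.05 at P9, near the 4.42% of all accessions. At a single age, low and high libraries did not overlap for 10.1% of accessions at P2 and 7.27% at P9. At both ages and in the same direction this held for 29 of 8379 accessions (17 lower and 12 higher in the low class). In opposite directions it held for 29 as well. NM_001132452 and NM_001007318 are among the 17, which by itself does not set them apart.

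Other accessions were followed because their levels were most like or unlike that of NM_173010 over the 24 cortex libraries. NM_022768 had r = 0.76, NM_053103 r = -0.68 and NM_030035 r = -0.68, as a description. At P2 their low minus high log2 differences were -0.37 (SE 0.440), 0.48 (SE 0.406) and 0.38 (SE 0.299), none past the threshold. NM_030035 was at 21.3, 21.9 and 23.9 scaled CPM in the low and 17.2, 13.1 and 20.9 in the high libraries. It did not overlap between classes, as for 10.1% of all accessions at P2, while NM_022768 and NM_053103 overlapped. At P9, NM_030035 was at 20.4, 25.7 and 23.9 scaled CPM in the low and 9.64, 10.8 and 11.03 in the high libraries, and NM_053103 at 11.1, 10.8 and 7.54 against 2.41, 3.60 and 2.45, both without overlap, as for 7.27% of all accessions at P9. Their P9 log2 differences were 1.13 (SE 0.280, adjusted p = 0.445 in edgeR) and 1.78 (SE 0.547, adjusted p = 0.753 in edgeR). These accessions were picked for their correlation over libraries that include the P2 and P9 ones, so the directions follow in part from the choice.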

How the data were processed

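Per the labels' protocols, total RNA was depleted of rRNA and prepared with a kit that keeps strand. The submitters' processing notes name STAR, rn6 and Rnor_6.0. For the counter, its annotation and its strand setting, nothing is given in the sources used here. Values deposited by the authors are unnormalized counts, whole numbers for each RefSeq accession (168377 NM_ and 16067 NR_), and 0 per-sample columns were unmapped. Methylation tables hold no cortex library and were not used here.

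In R 4.3.3, the 24 cortex libraries (735159 to 2498255 counts) were fitted in edgeR 4.0.16 with TMM scaling, filterByExpr and robust quasi-likelihood dispersion. The 6 libraries formed 2 groups by the 20 CPM rule and the other 18 their label groups (16 residual degrees of freedom, common coefficient of variation 13.2%). The filter kept 97.2% to 98.9% of counts. NM_173010 was left out of all counts of calls. P-values were Benjamini-Hochberg adjusted over all accessions, and the standard error is the log2 difference divided by the root of F. The 24 hypothalamus libraries (218288 to 1165651 counts) were fitted by label groups. Replicate numbers were assigned in record order. The fit was tested on simulated data. DESeq2 1.42.0, left-out libraries, other scalings, no filter, thinning and other terms were tried.

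Members and lists were chosen with earlier results of these data known. Named accessions are, by rule, the 2 lowest p-values in each direction where none passed with a mean of at least 5 CPM, and the 2 highest and 2 lowest correlations with NM_173010 (log2 CPM, prior count 2). Gene and marker lists had 0 matched accessions and gave no value.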

Additional observations from a re-analysis of the deposited data

How the results depend on the processing

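The 3 low libraries were the same with TMM-adjusted CPM. Limits of 15 and 25 CPM could not change them, because none of the 6 libraries lay between 13.6 and 27.8 CPM. The P2 count of 0 stayed 0 with only the 6 libraries, with the genotype label as a second term, with DESeq2 size factors, with scaling by total, in DESeq2, with thinning and with the Ube3a level as a continuous term (lowest adjusted p 0.0969 in edgeR with the label as a term). It was 1 with no filter on low counts (NM_001132452, log2 difference -1.38, adjusted p = 0.0409 in edgeR), 2 when averaged over P2 and P9, and 0 to 1 with a library left out, the 1 being NM_001012477 without WT replicate 2. The count for the genotype label was 0 under each alternative except with the Ube3a class as a second term, where it was 1: NM_013823 had 22, 9 and 52 counts in WT and 3, 2 and 2 in deletion libraries (log2 difference -3.86, adjusted p = 0.0232 in edgeR). Its low minus high log2 difference was -0.93 and ranged from -1.83 to 1.94 with a library left out, turning to 1.94 without WT replicate 3. With a library left out it was 0 to 0 for the label.

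Of 134 alternative values for 10 accessions, 1 reversed and 2 gained a call, and the cause was not tested. For the comparison averaged over ages, no filter gave 7 calls (6 lower and 1 higher), only the 12 libraries 0, DESeq2 1, and left-out libraries 2 to 3, the third being NM_008901 without P2 WT replicate 2 and NM_011668 without P9 WT replicate 1. No paired analysis was possible because the labels give no replicate numbers. Depth limits sparse accessions most: NM_173010 itself had 38 counts in the low and 108 in the high class.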

Other observations

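Differences in 2 accessions, chosen after their values were seen, rested mainly on 1 library each. NM_027915 had a log2 difference of 5.64 (SE 2.31, adjusted p above 0.99 in edgeR), with 67 counts in WT replicate 1 and at most 1 count in each of the other 5 libraries. NR_137294 ran from 14.5 scaled CPM in WT replicate 1 to 1381 in deletion replicate 2. The other 4 libraries had 36.7 to 231 scaled CPM of NR_137294, and its log2 difference between the classes was -2.72 (SE 2.03, adjusted p above 0.99 in edgeR).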
